A study of Homo sapiens with 16 samples.

Results

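The 9 genes RHOU, NDEL1, DSN1, SAFB2, TAX1BP3, DPY19L1, TBX2, DCP1B and KLHL6 each carry a region that the TRIM28 library of ARID1A-knockdown HCT116 cells lists as a peak and that neither TRIM28 list of the control cells holds. They are 9 of 19970 protein-coding genes, and their regions are 9 of 7301 regions gained by the same definition. A region counted as gained if it was among the 10000 peaks with the highest −log10 q of the knockdown TRIM28 list called against input, met a peak of the list called against IgG, and met no TRIM28 peak of the control cells in either list. The members were then chosen by fold enrichment, the height of a peak over its local background: the 12 gained regions of highest fold within a named protein-coding or lncRNA gene (body and 1 kb around it, 1 region per gene, LOC symbols left out) were taken, and 9 of them gave the members. The regions in ARID1A, the UGT1A cluster and NBPF20 make up the rest. Among all gained regions, those outside such genes included, the members rank from 22 to 57 by fold. Both TRIM28 libraries of the shRNA lines were therefore used in the choice, and their values are descriptions. The other 8 libraries were not used in it.

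TRIM28 (also KAP1) is a corepressor that KRAB zinc finger proteins bring to DNA. It recruits SETDB1, a methyltransferase that makes H3K9me3, the histone mark of constitutive heterochromatin and of silenced repeats. ARID1A is a DNA-binding subunit of the SWI/SNF chromatin remodeller and is often mutated in colorectal cancer.

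Chromatin immunoprecipitation sequencing (ChIP-seq) mapped ARID1A, H3K9me3, TRIM28 and SETDB1 in HCT116, a widely used human colon carcinoma line, to relate ARID1A to heterochromatin. Unmodified cells, with no shRNA in their label, had ARID1A, H3K9me3 and TRIM28 libraries. Cells with the control shRNA (shCtrl, CTR in the sample titles) had all 4 antibodies. Cells with the shRNA against ARID1A (shARID1A) had H3K9me3, TRIM28 and SETDB1, and ARID1A ChIP in them was not analysed here, so the knockdown itself is taken from the label. For the shRNA, neither its target sequence nor the number of clones is stated in the sources used here. Each group had 1 library. Differences between cell states therefore have no replicate check, and none was tested. All intervals below cover counting error only. The 10 libraries were each called against input and against IgG, which gave 20 lists. The lists of a cell state that name the same kind of control were taken to share that control library, so their peaks are not independent of each other.

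Some facts of the whole series bear on every count below. The shARID1A TRIM28 list against input held 203714 peaks, of which 2119 were strong (q of 0.05 or less), and the shCtrl TRIM28 list held 70447 peaks, of which 25 were strong. Against IgG the numbers were 281182 and 264115 peaks, with 3776 and 598 strong. The precipitated shCtrl library was scaled to 0.775 for the call against input and the shARID1A library was not scaled, so these lists were called at unlike depth. Against IgG neither TRIM28 library was scaled, and the most common background was 1.16 fragments in shCtrl and 1.12 in shARID1A. Some overlaps of the shCtrl H3K9me3 and SETDB1 libraries went against their labels, and others did not. Of 6833 strong peaks of the library labelled shCtrl H3K9me3, 15.1% met a shARID1A H3K9me3 peak and 58.2% met an unmodified ARID1A peak. A shCtrl ARID1A peak was met by 28.5% of them. Of 12115 strong shARID1A H3K9me3 peaks, 8.0% met a peak of the library labelled shCtrl H3K9me3 and 65.3% met a peak of the library labelled shCtrl SETDB1. Other overlaps did not go against the labels: 82.3% of the strong shCtrl H3K9me3 peaks met a peak of the library labelled shCtrl SETDB1. Of 1363 strong shARID1A SETDB1 peaks, 46.1% met a peak labelled shCtrl SETDB1 and 5.94% one labelled shCtrl H3K9me3. Whether the labels are wrong was not tested. Values from these 2 shCtrl libraries are therefore given apart, except in the merged strong sites. No count in unmodified or shARID1A cells rests on them.

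At 5 of the 9 genes the gained region reached the stretch from 250 bases before to 50 bases after an annotated start site. Of all 7301 gained regions 5.27% did so, and of the 100 gained regions with the highest fold, a comparison added after the data were seen, 12 did. Members had to lie in a named gene or within 1 kb of it, while both comparison sets also hold regions outside genes. The choice thus favoured start sites, and nothing is read from the difference. The 5 genes were RHOU, NDEL1, DSN1, SAFB2 and TAX1BP3, out of 8 members with an entry in the promoter table. TBX2 has none. RHOU has 2 annotated start sites (RefSeq, GRCh38.p14) and the other 4 genes 1 each. The 250 bases before the start reached are printed because the TRIM28 region covers them, whole in 4 genes and over 200 bases in DSN1. They lie at chr1:228644397-228644646 on the plus strand (RHOU), chr17:8435634-8435883 on the plus strand (NDEL1), chr20:36773764-36774013 on the minus strand (DSN1), chr19:5622777-5623026 on the minus strand (SAFB2) and chr17:3668579-3668828 on the minus strand (TAX1BP3). Each is written 5′ to 3′ in the direction of its gene, and capitals mark the GC box, GGGCGG or its reverse complement CCGCCC.
RHOU: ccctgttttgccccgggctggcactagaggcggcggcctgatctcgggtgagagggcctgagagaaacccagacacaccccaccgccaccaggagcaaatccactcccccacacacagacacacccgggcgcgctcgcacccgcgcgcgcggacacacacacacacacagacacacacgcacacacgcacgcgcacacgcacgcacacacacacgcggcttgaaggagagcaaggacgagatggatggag
NDEL1: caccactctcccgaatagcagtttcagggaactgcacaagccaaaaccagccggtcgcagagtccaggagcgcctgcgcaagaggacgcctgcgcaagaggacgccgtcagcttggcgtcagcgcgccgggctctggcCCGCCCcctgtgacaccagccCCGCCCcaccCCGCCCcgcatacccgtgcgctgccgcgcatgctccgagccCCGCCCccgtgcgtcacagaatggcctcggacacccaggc
DSN1: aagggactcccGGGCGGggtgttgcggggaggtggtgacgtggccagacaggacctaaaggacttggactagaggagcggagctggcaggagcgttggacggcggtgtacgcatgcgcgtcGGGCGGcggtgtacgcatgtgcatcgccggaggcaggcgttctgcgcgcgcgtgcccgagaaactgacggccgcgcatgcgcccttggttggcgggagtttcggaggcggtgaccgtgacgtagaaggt
SAFB2: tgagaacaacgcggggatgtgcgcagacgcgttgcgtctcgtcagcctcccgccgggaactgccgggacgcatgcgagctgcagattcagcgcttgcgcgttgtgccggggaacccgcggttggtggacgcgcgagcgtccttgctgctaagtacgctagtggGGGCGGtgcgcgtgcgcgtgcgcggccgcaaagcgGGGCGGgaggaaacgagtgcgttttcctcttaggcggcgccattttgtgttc
TAX1BP3: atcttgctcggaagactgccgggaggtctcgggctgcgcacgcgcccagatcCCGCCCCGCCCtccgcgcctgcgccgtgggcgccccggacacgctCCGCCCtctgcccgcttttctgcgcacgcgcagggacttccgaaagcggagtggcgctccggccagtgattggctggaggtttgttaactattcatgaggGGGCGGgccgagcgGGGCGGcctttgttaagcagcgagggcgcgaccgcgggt
The 5 stretches were rich in G and C, from 65.6% in RHOU to 70.4% in NDEL1 and TAX1BP3, against a median of 58.0% over 34789 promoters of the same length. CG pairs numbered 23 in RHOU, 26 in NDEL1, 32 in DSN1, 33 in TAX1BP3 and 37 in SAFB2, against a median of 11. All 5 were thus above the median promoter, at percentiles from 74.2 (RHOU) to 96.0 (SAFB2) of the CG count. A GC box stood in 4 of the 5 and in 42.6% of all promoters, searched on both strands. TAX1BP3 had 5 of them, of which 2 share a base, NDEL1 had 4, DSN1 and SAFB2 had 2 each, and RHOU had 0. CCAAT stood in TAX1BP3 alone (32.0% of all promoters). None of the 5 held TATAAA (10.8%), the E-box CACGTG (6.33%), the CRE TGACGTCA (1.64%), the ETS letters CCGGAAGT (3.40%) or the YY1 letters AAGATGGCG (0.655%). GCATGC, the centre of the motif of NRF1, a regulator of housekeeping promoters, was searched after the sequences had been seen. It stood in NDEL1, DSN1 and SAFB2 and in 6.18% of all promoters. These matches describe letters and are not sites of any factor measured here.

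Read by depth, the 9 regions were small counts over a very low background (the plot of fragments at the summit). TRIM28 fragments at the summit numbered 19 in DSN1, 18 in RHOU, 14 in NDEL1, 13 in SAFB2, DPY19L1 and KLHL6, 12 in DCP1B, and 11 in TAX1BP3 and TBX2. The local background was between 1.12 and 1.98 fragments. The exact Poisson 95% interval ran from 5.49 to 19.7 for a summit of 11 fragments and from 11.4 to 29.7 for one of 19, so the intervals of all 9 overlap and their order by fragments is not resolved. Every lower bound lay above the local background, which follows from the choice of these regions by q and fold in the same library. The least that any of the sampled shCtrl TRIM28 peaks held was 4 fragments against input and 3 against IgG.

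**Figure D1:**
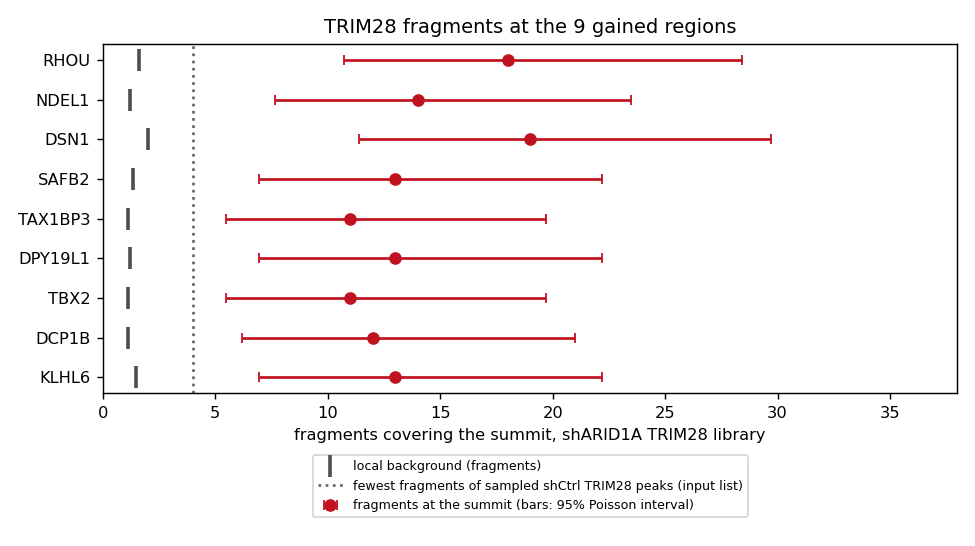
Fragments covering the TRIM28 summit in the shARID1A library at each of the 9 regions (points, x axis in fragments, bars are exact 95% Poisson intervals), with the local background (ticks) and the fewest fragments of the sampled shCtrl TRIM28 peaks against input (dotted line at 4). All 9 intervals lie above both, from which nothing is read because the regions were chosen by q and fold, and all overlap each other.

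The fold enrichment that chose the members is the summit height plus 1 over the background plus 1. It was 7.32 for RHOU, 6.77 for NDEL1, 6.70 for DSN1, 6.32 for DPY19L1, 6.12 for DCP1B, 6.04 for SAFB2, 5.70 for KLHL6 and 5.65 for both TAX1BP3 and TBX2. The authors' q for these peaks ran from 1.5e-09 (RHOU) to 1.3e-04 (TAX1BP3 and TBX2). Just outside the 12 lay CHMP2A with UBE2M at 5.64, ADI1 at 5.48 and PABPC4 at 5.43, so the line between members and next genes runs through nearly equal folds. Over all 7301 gained regions the median fold was 3.77 and the lowest 1.57. In the list against IgG the folds were 9.41 for DSN1, 8.94 for RHOU, 7.06 for NDEL1, 6.59 for SAFB2, 5.93 for DPY19L1, 5.65 for TAX1BP3 and TBX2, 5.26 for DCP1B and 4.93 for KLHL6. DSN1 led there and RHOU against input. All 9 regions also ranked among the top 10000 of the IgG list. In width the members' regions had a median of 582 bp against 307 bp over all gained regions.

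Absence from the control cells was part of the choice, and the distance to the nearest TRIM28 peak there shows how wide the gap was. Against input the nearest shCtrl TRIM28 peak lay 3247 bp from the KLHL6 region and from 22155 bp (SAFB2) to 75577 bp (DSN1) from the others. Against IgG, the longer list, it lay 371 bp away at KLHL6, 568 bp at DSN1 and from 1456 bp (DCP1B) to 3483 bp (SAFB2) at the others. Of these IgG neighbours the one at RHOU, 1563 bp away, was strong, with a fold of 5.56 and a q of 5.7e-04. The other 8 had folds from 1.79 (TAX1BP3) to 3.24 (TBX2 and KLHL6) and none was strong. With no shCtrl TRIM28 peak allowed within 1 kb, 7 of the 9 regions were still gained, and DSN1 and KLHL6 dropped out.

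In the unmodified cells, which carry no shRNA, none of the 9 regions met a TRIM28 peak against input, where 1.85% of all gained regions did. Against IgG 2 of the 9 did, RHOU and DPY19L1, where 4.41% of all gained regions and 20 of the 100 with the highest fold did. At DPY19L1 that peak had a fold of 1.94 from 7 fragments, with its summit 280 bp from that of the gained region. At RHOU it had a fold of 1.87, from 77 fragments (scaled by 0.837) over a background of 34 scaled fragments, and it was not strong. No member thus had a strong TRIM28 peak at its region in unmodified cells. The whole unmodified TRIM28 lists held only 67 strong peaks against input and 396 against IgG, so nothing is read from this. In shCtrl cells the absence was fixed by the choice.

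SETDB1, the enzyme that TRIM28 recruits, was listed in shARID1A cells at 4 of the 9 regions against input (RHOU, SAFB2, TAX1BP3 and TBX2) and at 7 against IgG, which adds NDEL1, DSN1 and DCP1B. Of all gained regions 9.12% met a SETDB1 peak against input and 19.8% against IgG, but of the 100 gained regions with the highest fold 52 and 63 did. The members' counts were thus above the share of all gained regions and close to that of the regions with similar fold. The 100 regions had folds from 5.18 to 13.2 and hold the members themselves. Most of the SETDB1 peaks were weak: RHOU was the only member with a strong one against input, and RHOU and TAX1BP3 were the only ones against IgG. DPY19L1 and KLHL6 had none in either list. These SETDB1 and TRIM28 lists share their controls.

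H3K9me3, the mark that SETDB1 makes, was listed in shARID1A cells at 2 of the 9 regions, RHOU and KLHL6, in either list. The share over all gained regions was 11.7% against input and 20.2% against IgG, and 28 and 37 of the 100 with the highest fold had one. In unmodified cells no member region met an H3K9me3 peak against input (0.877% of all gained regions), and RHOU alone met one against IgG (2.82%), where 25 of the 100 with the highest fold did. At 7 of the 9 regions no H3K9me3 peak of the same cells met the region, and the count of 2 stands near these shares. Against IgG such peaks lay 61 bp from the DSN1 region, 103 bp from TBX2 (strong, q of 0.038) and 179 bp from TAX1BP3. At the others they lay 1644 bp (DCP1B) to 4341 bp (SAFB2) away, so the count depends on the rule of 1 bp overlap. At this depth a missing peak does not show that the mark is absent: the fewest fragments of a sampled shARID1A H3K9me3 peak were 4 against input and 3 against IgG.

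The label of the shCtrl ARID1A library was taken as given, though some overlaps of 2 other shCtrl libraries went against theirs. Over its whole list against input it had 43 strong peaks. It had a peak at 3 of the 9 regions against input, SAFB2, TAX1BP3 and TBX2, and at 5 against IgG, which adds RHOU and DSN1. All gained regions met such a peak at 6.52% against input and 17.2% against IgG, and 27 and 54 of the 100 with the highest fold did. In unmodified cells ARID1A was at none against input (1.03% of all gained regions) and at RHOU alone against IgG (2.34%). RHOU had the only strong ARID1A peak among the regions, in the IgG list of shCtrl cells. Further shCtrl ARID1A peaks, none strong, lay 57 bp (input) and 40 bp (IgG) from the KLHL6 region. Against IgG such peaks also lay 144 bp from NDEL1 and 278 bp from DPY19L1, so these counts too depend on the rule of 1 bp overlap. The regions of SAFB2, TAX1BP3 and TBX2 met both a shCtrl ARID1A and a shARID1A SETDB1 peak against input, and so did 1.82% of all gained regions and 24 of the 100 with the highest fold. Against IgG 5 of the 9 did, with RHOU and DSN1 added, where 8.37% of all gained regions and 48 of the 100 did. The 3 of 9 and 5 of 9 thus stand near the counts of the regions of highest fold. The ARID1A peaks at SAFB2, TAX1BP3 and TBX2 were not strong, with a q of 1.0 against input, and the one at TAX1BP3 covered 11.1% of the region.

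The 2 shCtrl libraries with doubtful labels differed in their hits. The library labelled shCtrl SETDB1 had peaks at NDEL1 and KLHL6 against input, where 7.96% of all gained regions had one, and at NDEL1, KLHL6 and RHOU against IgG, where 10.5% had one. Of the 100 with the highest fold, 7 and 12 had one. The members' counts of 2 and 3 of 9 rest on few regions. All of these 5 peaks were strong, but so were 37702 of all 79404 peaks of this library against input and 55343 of 114369 against IgG. The library labelled shCtrl H3K9me3 had a peak at 0 of the 9 regions in both lists, where 2.96% of all gained regions against input and 6.03% against IgG had one, and 1 and 5 of the 100 with the highest fold.

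**Figure D2:**
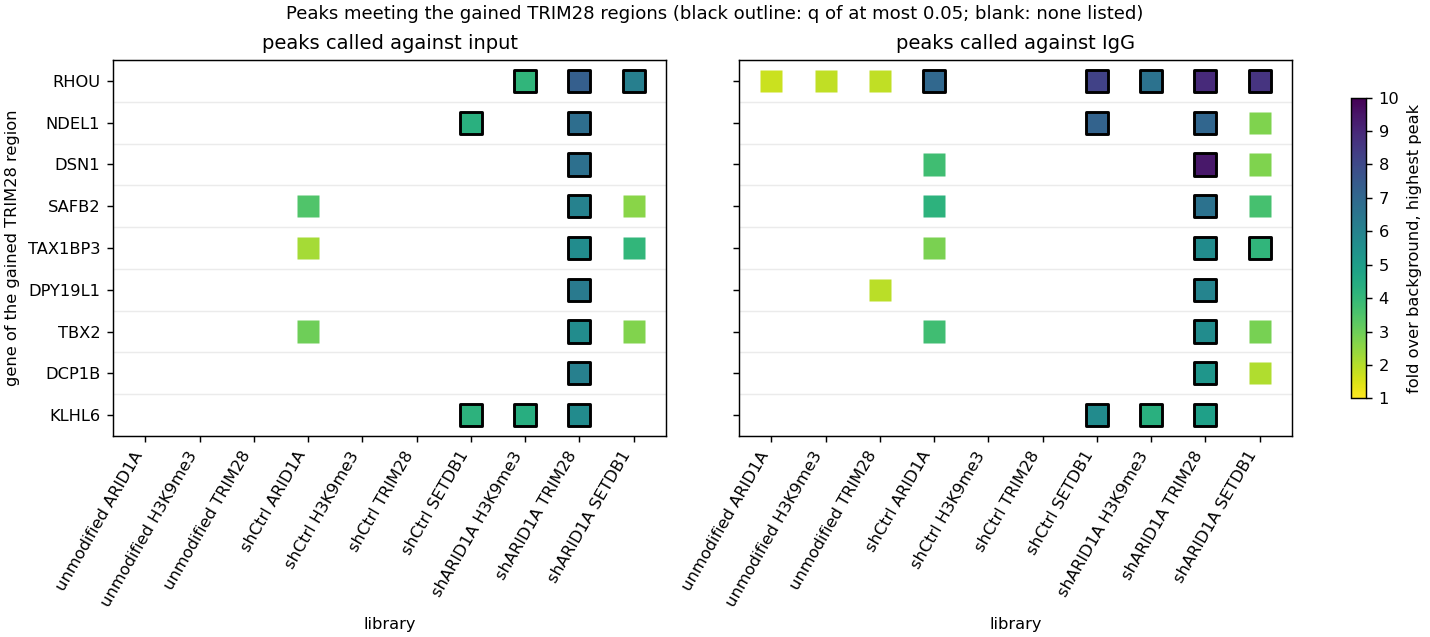
Fold enrichment of the highest peak that meets each gained region (rows, genes) in each library (columns), for lists against input (left) and IgG (right); black outlines mark a q of at most 0.05 and blanks mean that no peak is listed. Only the shARID1A TRIM28 column, which chose the genes, is filled for all 9, and the shCtrl TRIM28 column is empty by the same choice.

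**Figure D3:**
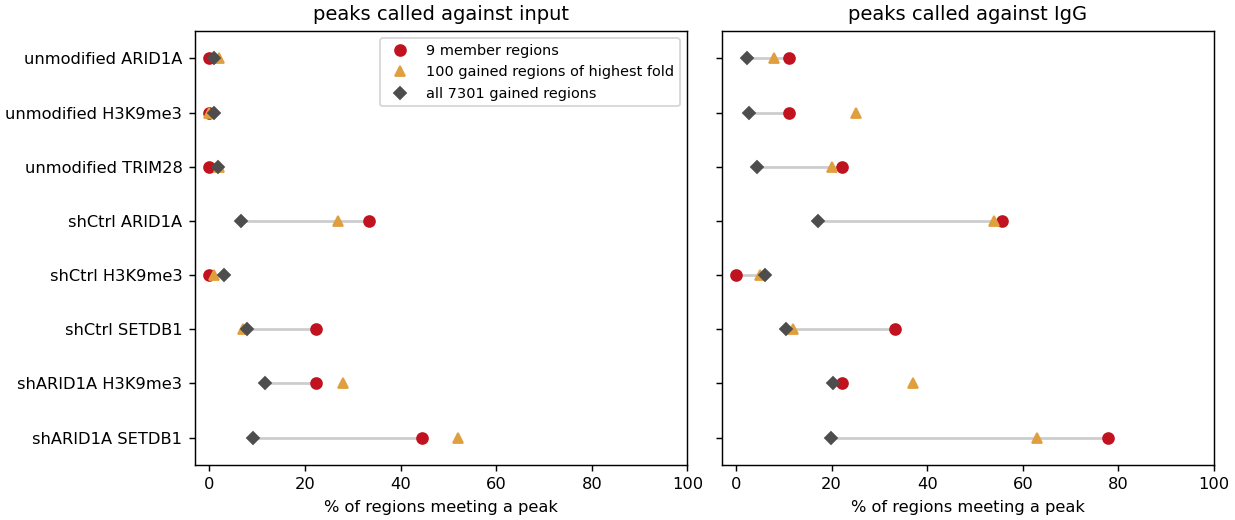
Percentage of regions that meet a peak of each library the choice did not use (rows), for the 9 member regions (circles), the 100 gained regions of highest fold (triangles) and all 7301 gained regions (diamonds), against input (left) and IgG (right). In shARID1A SETDB1 the circles lie near the triangles, which are at 52 and 63, and far from the diamonds at 9.12 and 19.8.

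RHOU encodes a protein that acts on the actin cytoskeleton and cell adhesion. Its region, chr1:228644165-228646557, was the widest, at 2393 bp. It held only 1 of the 2 annotated start sites of RHOU, with the summit 951 bp after that start. It also holds the pseudogene DUSP5P1 and RNA5S17, the last of 17 genes of the 5S ribosomal RNA array, a tandem repeat whose copies give near-identical reads that cannot be placed with certainty. The array held 19 other gained regions, with folds from 2.52 to 10.0. RHOU was also the member with peaks in the most libraries. SETDB1 in shARID1A cells had 3 peaks here against input. The highest held 18 fragments (scaled by 0.972) over a background of 2.0 scaled fragments, with a fold of 6.16 and a q of 4.5e-07. Its summit lay 90 bp from that of TRIM28. H3K9me3 in shARID1A cells had a strong peak of fold 4.11 against input 627 bp from the TRIM28 summit, and strong peaks of fold 6.62 and 6.37 against IgG.

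In shCtrl cells RHOU had an ARID1A peak against IgG of 2903 bp that covered the whole region, with 22 fragments, a fold of 6.99 and a q of 3.4e-10. It had no counterpart against input. The 3 unmodified libraries had weak peaks here against IgG, with folds of 1.72 (ARID1A), 1.85 (H3K9me3) and 1.87 (TRIM28). Their summits held 79, 91 and 77 fragments before scaling, at library scales of 0.769, 0.659 and 0.837. Their local backgrounds were 35, 32 and 34 in scaled fragments, where the most common background of these lists was 2.38 to 2.43. In the shRNA lines the background at the same place was between 1.12 and 5.0 fragments. The high background of the unmodified cells and the repeated sequence move with the RHOU result, and their part in it was not tested. Further into the gene, 2 strong peaks of the library labelled shCtrl SETDB1 lay 45313 and 55905 bp from the region, with folds of 4.05 and 5.80 against input.

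NDEL1 encodes a partner of LIS1 that regulates the motor dynein, and DSN1 a subunit of the MIS12 complex, which ties kinetochores to microtubules. Both had a narrow region just before an annotated start. The NDEL1 region, chr17:8435589-8435914, was 326 bp wide with its summit 165 bp before that start, which lies inside the gene body of the RefSeq table (its low end is 22588 bp from the summit). The library labelled shCtrl SETDB1 had a strong peak at NDEL1, fold 4.30 with 16 fragments against input and 7.17 against IgG, with its summit 171 and 149 bp from that of TRIM28. In shARID1A cells SETDB1 was listed here against IgG only, with 5 fragments, a fold of 2.73 and a q of 0.68. H3K9me3 and ARID1A had no peak at the NDEL1 region in any state.

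The DSN1 region, chr20:36773702-36773963, was the narrowest, at 262 bp, with the summit 93 bp before the start. No other library had a DSN1 region peak against input. Against IgG ARID1A in shCtrl cells had peaks of fold 3.75 and 2.35 on its flanks, 222 and 225 bp from the TRIM28 summit, and SETDB1 in shARID1A cells had one of fold 2.73, and none of these was strong. Over the whole gene extended by 1 kb, DSN1 had no peak in any unmodified or shCtrl list against input. In shARID1A cells it had 3 TRIM28 peaks and 1 H3K9me3 peak, of fold 3.91.

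SAFB2 and TAX1BP3 shared a layout: in both the TRIM28 summit lay between 2 start sites that point away from each other. SAFB2 encodes a nuclear matrix protein that binds DNA and RNA and represses the oestrogen receptor, and its neighbour SAFB is its close paralog. Their start sites are 307 bp apart, and the TRIM28 summit was 135 bp from that of SAFB2 and 172 bp from that of SAFB. TAX1BP3 encodes a small PDZ domain protein, and EMC6, its neighbour, a subunit of the ER membrane protein complex. Here the start sites are 234 bp apart and the summit was 103 bp from TAX1BP3 and 131 bp from EMC6. Of 385 gained regions that meet a promoter window, 22.6% meet windows on both strands. A peak between such starts cannot be given to either gene, so SAFB and EMC6 carry these regions as much as the members do. The TAX1BP3 region also belongs to the readthrough gene P2RX5-TAX1BP3.

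At the SAFB2 region, chr19:5622446-5623103 (658 bp), the ARID1A peak of shCtrl cells had its summit at the same base as TRIM28 against input and 10 bp away against IgG. It held 8 fragments, with folds of 3.47 and 4.22 and q values of 1.0 and 0.055. SETDB1 in shARID1A cells followed at 89 and 87 bp, with 7 fragments and folds of 2.60 and 3.64, not strong. At the TAX1BP3 region, chr17:3668411-3668887 (477 bp), the SETDB1 peak was higher, with 8 fragments and folds of 4.06 against input (q of 0.29) and 4.10 against IgG (q of 0.037). Its summit lay 303 and 290 bp from that of TRIM28, towards EMC6. ARID1A in shCtrl cells had a weak peak on the EMC6 side, of fold 2.23 against input, 214 bp from the TRIM28 summit. Against IgG it had a peak on each side, both of fold 2.82, at 212 and 766 bp. TAX1BP3 is the shortest member, 5684 bp, and shARID1A TRIM28 had 1 peak in it and its flanks against input.

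DPY19L1 and TBX2 had their regions at or near the high-coordinate end of the gene. That end is the start of DPY19L1, on the minus strand, while the promoter table gives no strand or start site for TBX2. DPY19L1 encodes a C-mannosyltransferase of the endoplasmic reticulum. Its region, chr7:35038828-35039516 (689 bp), lay before the gene, with the summit 956 bp from the nearer of its 2 annotated start sites. The region also meets another annotated gene, LOC105375228. Apart from the weak unmodified TRIM28 peak, no other library had a peak at the DPY19L1 region in any list. TBX2 encodes a T-box transcription factor, mostly a repressor, that acts in development and in the control of senescence. Its region, chr17:61409056-61409637 (582 bp), had the summit 10 bp inside the high-coordinate end of the gene. A second strong TRIM28 peak of shARID1A cells, of fold 4.39, ran from 2992 to 3507 bp beyond that summit, outside the gene. ARID1A in shCtrl cells had a TBX2 peak of 7 fragments, with folds of 2.98 and 3.75 in the 2 lists and its summit 163 bp away. SETDB1 in shARID1A cells had 2 peaks there against input, of fold 2.68 and 2.71, and 1 of fold 2.86 against IgG. None of these TBX2 peaks was strong.

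DCP1B and KLHL6 had their regions far inside the gene. DCP1B encodes a cofactor of the enzyme that removes the cap of mRNA. Its region, chr12:1988091-1988723 (633 bp), was 16255 bp from the start and also lies within CACNA1C, a calcium channel gene that overlaps it. SETDB1 in shARID1A cells met it against IgG only, with 5 fragments, a fold of 2.07 and a q of 1.0. KLHL6 encodes an adaptor of a CUL3 ubiquitin ligase known from B lymphocytes. Its region, chr3:183495932-183496271 (340 bp), was 59593 bp from the start. With RHOU it was the member whose region met H3K9me3: in shARID1A cells that peak was strong, with 10 fragments, folds of 4.34 and 4.28 and its summit 269 and 279 bp from that of TRIM28. The library labelled shCtrl SETDB1 had a strong peak at the same place, with 12 fragments, folds of 4.22 and 5.68 and the summit 273 bp away. Both cover the low-coordinate edge of the TRIM28 region rather than its summit.

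**Figure D4:**
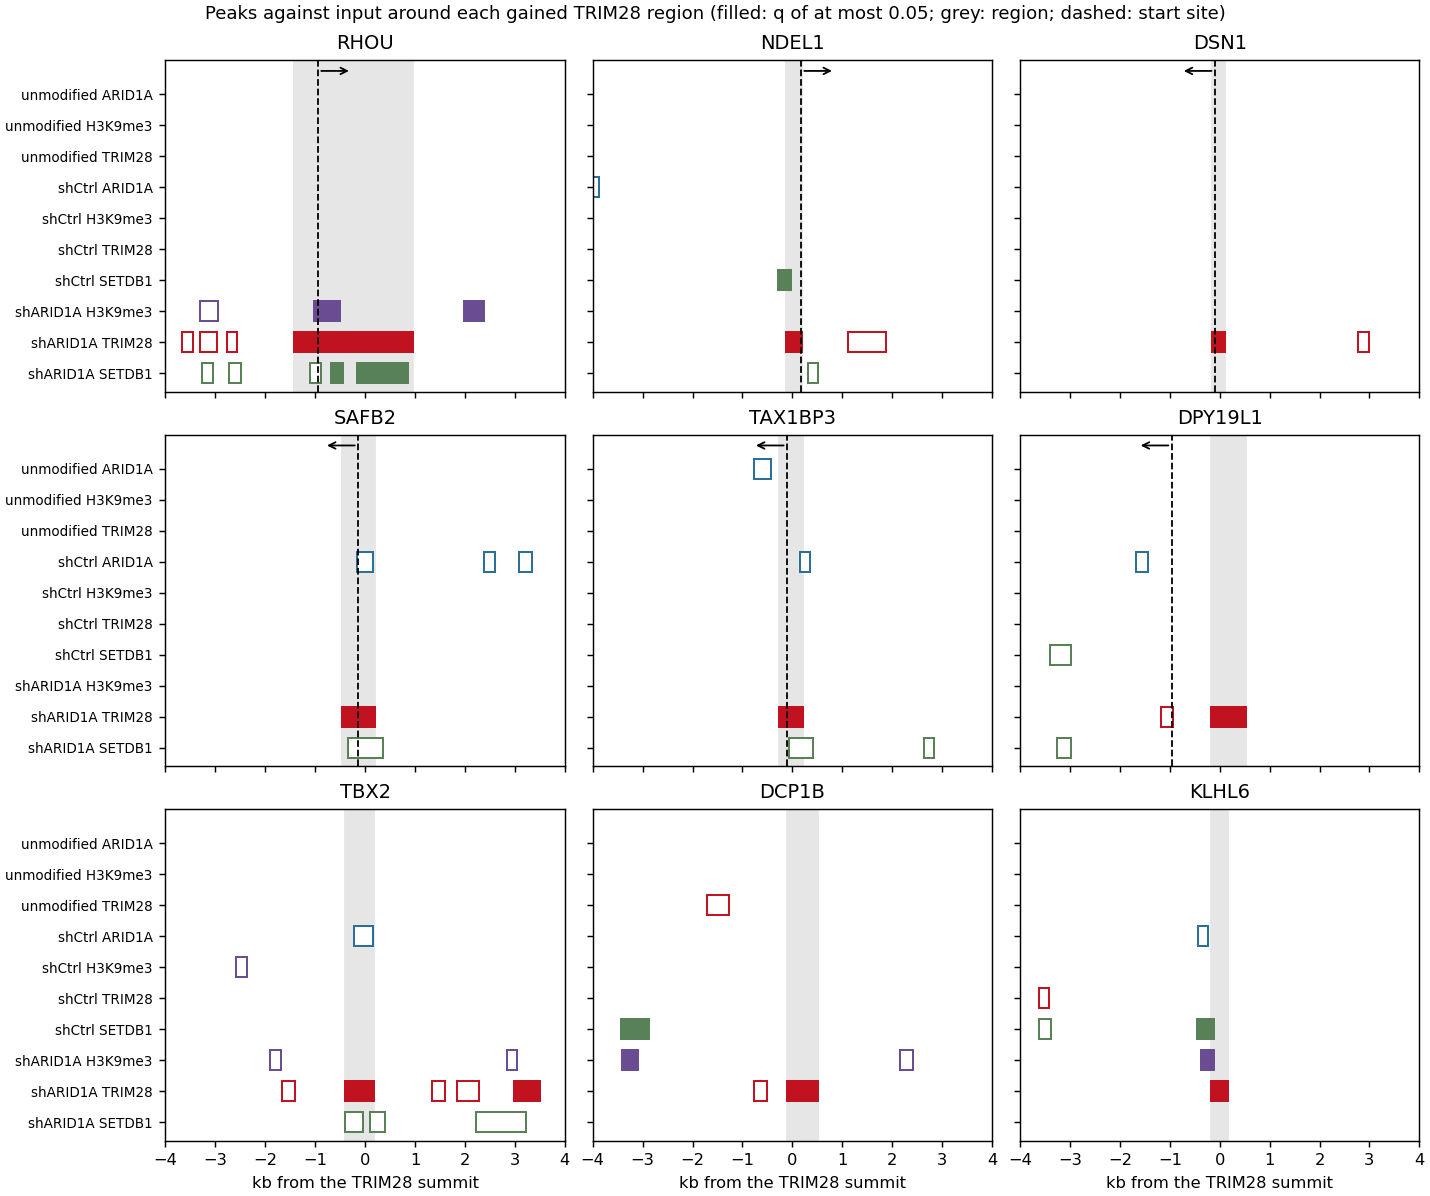
Peaks against input within 4 kb of each TRIM28 summit (x axis in kb, coordinates rising to the right), 1 track per library; filled boxes have a q of at most 0.05, grey bands are the gained regions, and dashed lines with arrows are the nearest start sites and their direction. The TRIM28 box lies at a start site in RHOU, NDEL1, DSN1, SAFB2 and TAX1BP3, and the H3K9me3 box of KLHL6 touches only the edge of its band.

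Over the whole genes, extended by 1 kb, each member had exactly 1 strong TRIM28 peak in shARID1A cells, its gained region, in both lists. In shCtrl cells the number of strong TRIM28 peaks in them was 0 in both lists. Of all protein-coding genes 3.88% had a strong shARID1A TRIM28 peak against input and 0.0351% a strong shCtrl one, and since both libraries chose the members nothing is read from these counts. Counted at any strength, TRIM28 had 12 peaks in 5 members in shCtrl and 42 peaks in 9 in shARID1A cells against input, but 67 peaks in 9 members and 65 peaks in 9 against IgG. Of all protein-coding genes 40.4% had a shCtrl TRIM28 peak against input and 72.4% a shARID1A one. Against IgG the shares were 76.0% and 83.4%, so a TRIM28 peak of some strength is common to most genes in those lists. The members are long, with a median of 61198 bp against 24190 bp over protein-coding genes, which bears on every count over gene bodies.

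In unmodified cells TRIM28 was in 2 of the 9 genes against input (28.4% of all coding genes), ARID1A in 2 (25.8%) and H3K9me3 in 0 (13.6%). In shCtrl cells ARID1A was in 8 (52.4%), and the libraries labelled H3K9me3 and SETDB1 were in 6 (46.8%) and 5 (58.7%). In shARID1A cells H3K9me3 was in 7 (46.8%) and SETDB1 in 7 (43.7%). TAX1BP3, DSN1, SAFB2 and TBX2 are the 4 shortest members.

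Strong peaks of all 20 lists within the extended genes merged into 37 sites, of which 9 are the gained regions. At 14 sites strong peaks of more than 1 library met, and 9 of these 14 lie away from the gained regions. All of these 9 include the library labelled shCtrl SETDB1. Without the 2 shCtrl libraries of doubtful label, only chr7:35003052-35005649 and chr12:2004275-2005101 of the 9 keep more than 1 library. Such sites were not counted in other genes, so nothing is read from these counts. DPY19L1 and DCP1B hold the clearest of the 9 (the plot of strong peaks along the 2 genes). In DPY19L1 a site at chr7:35003052-35005649, 33179 bp from the gained region, had a strong unmodified ARID1A peak of 2530 bp with a fold of 5.80 against input, and strong peaks of the libraries labelled shCtrl H3K9me3 (fold 5.63) and shCtrl SETDB1 (fold 6.01). No shARID1A library had a strong peak there against input, and SETDB1 alone had one against IgG (fold 3.75). Across the whole of DPY19L1 the library labelled shCtrl SETDB1 had 6 strong peaks against input, and H3K9me3 and SETDB1 of shARID1A cells had 0 each (1 each against IgG). The whole lists against input are as unlike, with 37702 strong peaks in the library labelled shCtrl SETDB1. The shARID1A lists held 12115 for H3K9me3 and 1363 for SETDB1, so nothing is read from the difference at DPY19L1.

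DCP1B had strong peaks of other libraries in both shRNA lines. A site at chr12:1984775-1985322, 2769 bp from the gained region, had the highest fold in any member against input, 10.9 in the library labelled shCtrl SETDB1, with a strong shARID1A H3K9me3 peak of fold 4.35. A site at chr12:1993399-1993796 had strong peaks of the libraries labelled shCtrl H3K9me3 (fold 7.28) and shCtrl SETDB1 (4.97) and none of shARID1A cells. At the start of DCP1B, chr12:2004275-2005101, shARID1A SETDB1 (4.78) and H3K9me3 (4.00) were strong together, as was the library labelled shCtrl SETDB1 (4.32). TRIM28 had no strong peak at any of these 3 sites in any state.

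**Figure D5:**
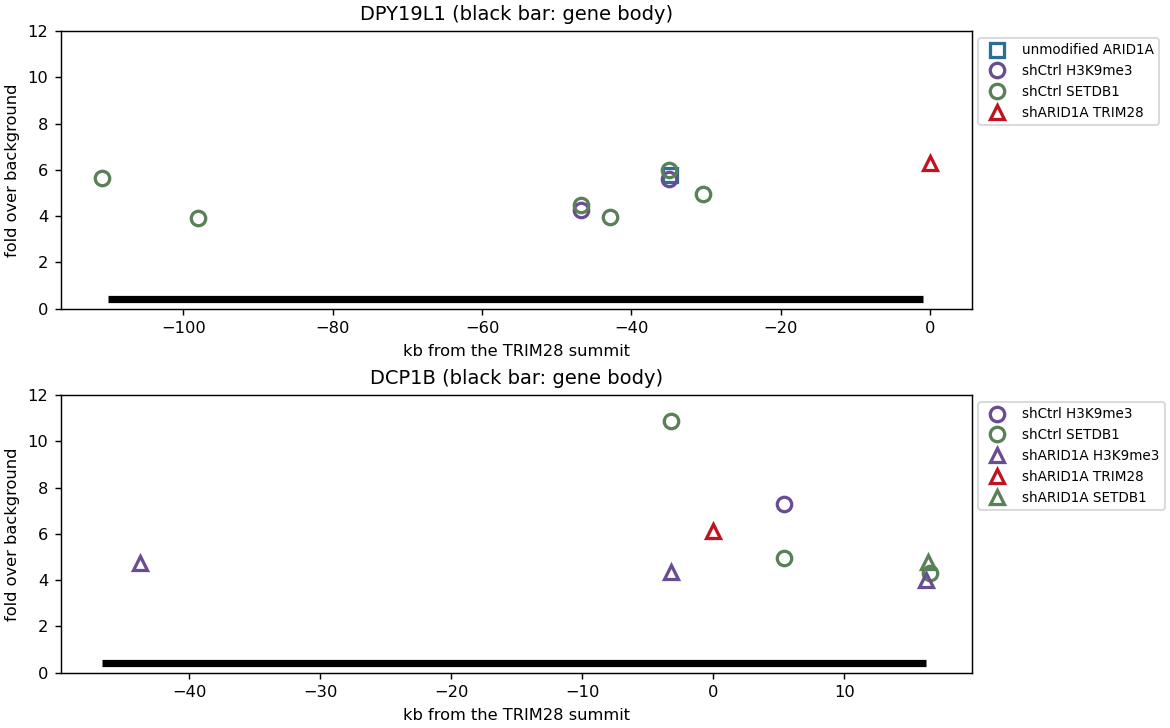
Strong peaks against input along DPY19L1 (top) and DCP1B (bottom), by distance of the peak summit from the gained TRIM28 summit (x axis, kb, coordinates rising to the right) and fold enrichment (y axis); colour is the antibody, squares are unmodified, circles shCtrl and triangles shARID1A libraries, and the black bar is the gene. In DPY19L1 the only triangle is TRIM28 at 0, and in DCP1B the circle at 10.9 stands highest.

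The 39 genes listed as partners or paralogs of the members held a gained region about as often as any coding gene. They include dynein regulators, kinetochore subunits, decapping factors, CUL3 adaptors and T-box factors. A gained region lay in 5 of the 39, or 12.8%, and in 13.8% of all coding genes. Without SAFB, whose region is that of SAFB2, 4 partners had one. A shCtrl TRIM28 peak against input was in 48.7% of the partners (40.4% of coding genes) and a shARID1A one in 79.5% (72.4%). Against IgG the partners stood at 92.3% (76.0%) and 94.9% (83.4%). Strong TRIM28 peaks against input were in 0 and 3 of the 39, beside 0.0351% and 3.88% of coding genes. SAFB shares the SAFB2 region, at a fold of 6.04. DPY19L2, a paralog of DPY19L1 needed for sperm head formation, and KLHL24, an adaptor that acts on intermediate filaments, both had a region of fold 4.24 with a q of 0.049. DYNC1H1, the heavy chain of dynein, had one of 3.52, and KLHL20, another CUL3 adaptor, one of 3.34, and with q values of 0.22 and 0.24 neither was strong. Listed partners of RHOU, DSN1, TAX1BP3, DCP1B and TBX2 held 0 gained regions.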

How the data were processed

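ChIP-seq peak lists of 10 HCT116 libraries were used, 1 library per group. The submitters' processing notes name the peak caller MACS2 2.2.7.1, the aligner Bowtie2 2.2.5, FastQC 0.11.9, ChIPseeker and deepTools 3.5.1, on GRCh38 (hg38), and no options are stated. The authors called peaks per library, and the names of the deposited lists give the control. The deposited fold enrichment is a ratio of summit height to local background, the deposited −log10 p-value and −log10 q-value belong to the same call, and the deposited score was not used. For H3K9me3 and TRIM28 the product named in the labels' protocol differs from that in the sample characteristics.

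The members and all gene lists were chosen with earlier results of these data known. All 9 members were named, then the 3 genes just outside, partners with a gained region (at most 5) and genes that overlap a member's region. Peaks meeting by at least 1 bp counted as shared. Genes and promoters came from RefSeq tables of GRCh38.p14. Depth was not stated. Fragments were recovered from fold and p, at summits before scaling of the library and in backgrounds after it. A whole number (tolerance 0.006) was possible for 99.3% or more of the 300 peaks drawn from each list, and a single one was settled for 283 to 300 of them, by a step tested on simulated data. Shares and fragments were described with exact 95% intervals, and no test was run. Alternatives were the IgG lists, strong peaks only, overlap of 50%, wider regions and genes, and 3 chosen after seeing the data, as was the comparison with the 100 regions of highest fold. Python 3.11.15, NumPy 2.4.6, pandas 2.3.3, SciPy 1.17.1 and Matplotlib 3.10.9 were used.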

Additional observations from a re-analysis of the deposited data

How the results depend on the processing

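No paired analysis was possible because each group has 1 library and no result comes from a test. Of 103 alternatives, over counts and the members' folds, 77 stayed within 1.5 times the value reported and 26, all of counts, moved. With IgG lists, regions with a peak became 1 for unmodified ARID1A and H3K9me3, 2 for unmodified TRIM28, 5 for shCtrl ARID1A and 7 for shARID1A SETDB1; genes became 4, 2 and 6 for the unmodified libraries (ARID1A, H3K9me3, TRIM28), 9 for shCtrl TRIM28 and 8 for shCtrl SETDB1; partners with shCtrl TRIM28 became 36. With strong peaks only, regions fell to 0 for shCtrl ARID1A and 1 for shARID1A SETDB1; genes fell to 1 and 0 for unmodified ARID1A and TRIM28, 0, 3 and 0 for shCtrl ARID1A, H3K9me3 and TRIM28, and 3 and 2 for shARID1A H3K9me3 and SETDB1; partners fell to 0 for shCtrl and 3 for shARID1A TRIM28. At 50% overlap regions fell to 0 for shCtrl SETDB1 and 1 for shARID1A H3K9me3, and with 1 kb added unmodified ARID1A rose to 1. In windows of 301 bp at the TRIM28 summit, an alternative chosen after seeing the data because member regions are wide, shARID1A H3K9me3 fell to 1 region and shARID1A SETDB1 had 4, where 8.29% of all gained regions had a SETDB1 peak. Summits of 11 to 19 fragments in 1 library limit every value for the members.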
